A study of Bos taurus with 12 samples.

Results

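RAB GTPases and the SNARE proteins of vesicle fusion were followed in bovine blastocysts that had developed in 4 environments. Their genes were chosen by name, with earlier results of these data known. A probe set had to carry exactly 1 gene symbol. The symbol began with RAB, VAMP or STX followed by a digit, or read SNAP23, SNAP29, NSF, NAPA, YKT6 or BET1. Of the 26773 probe sets on the array 92 met this rule and covered 89 genes, and the 3 genes with a pair of probe sets (VAMP7, RAB39A and RAB21) were represented by the brighter one. Of the 89 genes 54 encoded RAB GTPases, 26 SNAREs, 8 effectors or regulators with a RAB symbol and 1 the SNARE-disassembling ATPase NSF. NAPA was measured only by a probe set whose annotation lists its symbol 2 times, which did not count as 1 symbol, and was therefore not followed. RAB3C, listed in the same way, and RAB18, whose probe set also carries LOC616304, were left out too. Each of 12 Affymetrix Bovine Gene ST arrays took RNA from its own pool of 15 to 20 expanded blastocysts of the best morphological grade, with 3 arrays per group. VITRO embryos came from slaughterhouse oocytes that were matured, fertilized and cultured in the laboratory. IFOT-M embryos came from oocytes of the same source that were matured in vitro, injected into preovulatory follicles of synchronized, artificially inseminated recipient heifers (intrafollicular oocyte transfer) and flushed from the uterus. IFOT-IM oocytes were injected while still immature into a dominant follicle, so that maturation, fertilization and development took place in the recipient, and VIVO embryos were flushed from superovulated, inseminated heifers. Semen of the same bull was used throughout. VIVO embryos differed from all others in oocyte source and in the hormonal treatment of the donor, and a recipient's own embryo may have entered an IFOT pool, although the most advanced embryo of each flushing was discounted.

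RABs are small GTPases that sit on a particular membrane, bind GTP there and recruit the motors and tethers that bring a vesicle to its target. A SNARE on the vesicle, often a VAMP, then zips up with syntaxin and SNAP-type SNAREs on the target membrane and fuses the bilayers, after which NSF pulls the spent complex apart. In the blastocyst this traffic builds the apical and basolateral surfaces of the trophectoderm, carries its secretions, and takes up and recycles membrane and nutrients.

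Values are log2 signals, and each difference is a log2 fold change with the standard error of 1 limma fit over all 12 arrays. A gene was called lower or higher where its false discovery rate (FDR) over all probe sets tested was below 0.1, and a differentially expressed gene (DEG) was in addition changed more than 2-fold. Signals were more compressed in VITRO than in VIVO: over all probe sets the SD of an array was 1.50 to 1.54 in VITRO, 1.65 to 1.68 for IFOT-M, 1.55 to 1.64 for IFOT-IM and 1.73 to 1.75 in VIVO. The median difference between VITRO and VIVO was 0.24 in the tenth of probe sets with the lowest signal and -0.66 in the tenth with the highest. Further quantile normalization, which gives all arrays the same distribution, brought these to 0.03 and -0.18, and the median over all probe sets, 0.13 as deposited, to 0.00335. Of the 47 calls between VITRO and VIVO, 11 ended with the sign unchanged and 3 turned sign after quantile normalization, and 15 and 5 after cyclic loess, another rescaling, and of the calls in IFOT-M and IFOT-IM against VIVO 8 of 13 and 14 of 25 ended after quantile normalization. Where a member's call given with its log2 fold change ended after quantile normalization, the paragraph that first gives it says so. Trophectoderm markers, which average a high signal, were lower in VITRO for 8 of 11 genes (array means 4.0 to 4.33 in VITRO, 4.50 to 4.53 for IFOT-M, 4.26 to 4.47 for IFOT-IM and 4.54 to 4.81 in VIVO). Cumulus and granulosa markers were higher in VITRO for 4 of 11 (1.37 to 1.46 in VITRO, 1.25 to 1.33 for IFOT-M, 1.33 to 1.40 for IFOT-IM and 1.09 to 1.21 in VIVO), and 9 of those 11 lay below the median signal. Of 7 epiblast markers 4 were lower and 1 higher in VITRO, of 8 hypoblast markers 3 and 1, of 8 oviduct and uterine markers 0 and 2, and of 10 leukocyte and blood markers 2 and 4. Over all probe sets tested 22.7% were lower and 25.1% higher in VITRO. Below the median signal 3.94% were lower and 31.9% higher, and above it 41.4% and 18.3%. The part of cell composition in the results was not tested, and in pooled embryos fewer cells of a type and less RNA per cell cannot be told apart.

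In VITRO blastocysts RAB and SNARE genes were lower more often than they were higher. Compared with VIVO, 35 of 89 were called lower (39.3%, against 22.7% of all probe sets tested) and 12 higher (13.5%, against 25.1%), and their median log2 fold change was -0.16, against 0.13 over all probe sets. All 8 DEGs among them were lower, and 5.71% of all probe sets were DEGs lower in VITRO. In IFOT-M 12 were lower and 1 higher than in VIVO (6.87% and 3.21% of all probe sets), and in IFOT-IM 21 were lower and 4 higher (12.6% and 7.95%), with medians of -0.04 and -0.08. These 3 comparisons share the VIVO arrays. In 35 genes all VITRO arrays lay below all VIVO arrays and in 17 above them, against 23.2% and 26.9% of all probe sets. A moderated F test of any difference among the 4 groups called 35 of the 89 genes, and 36.3% of all probe sets.

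After quantile normalization VITRO had 30 lower genes, 26 of them among the 35, and 10 higher, against 16.6% and 12.9% of all probe sets. After cyclic loess normalization the split was 24 lower and 14 higher, against 14.8% and 13.6%. In IFOT-M the splits were 5 lower and 1 higher after quantile normalization (4.08% and 2.67% of all probe sets) and 8 and 3 after cyclic loess (5.12% and 4.14%), and in IFOT-IM 11 and 1 (7.06% and 4.95%) and 11 and 4 (7.79% and 6.55%). The count of lower genes in IFOT-M was 6 without VIVO replicate 3, and that in IFOT-IM was 13 without IFOT-IM replicate 1 or VIVO replicate 3. With the RNA integrity number of each pool, on average lowest in VITRO, as a covariate, 25 genes were lower and 8 higher in VITRO.

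Most lower calls lay among genes with a strong signal. Of the 59 members with a mean signal above the median of the probe sets tested, 32 were lower and 6 higher in VITRO, which was 54.2% and 10.2%, against 41.4% and 18.3% of all probe sets in that range. Their median change was -0.34, against -0.23. The 30 members below the median signal behaved otherwise, with 3 lower and 6 higher and a median of 0.18, against 3.94% lower, 31.9% higher and a median of 0.25 for all weak probe sets.

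**Figure D1:**
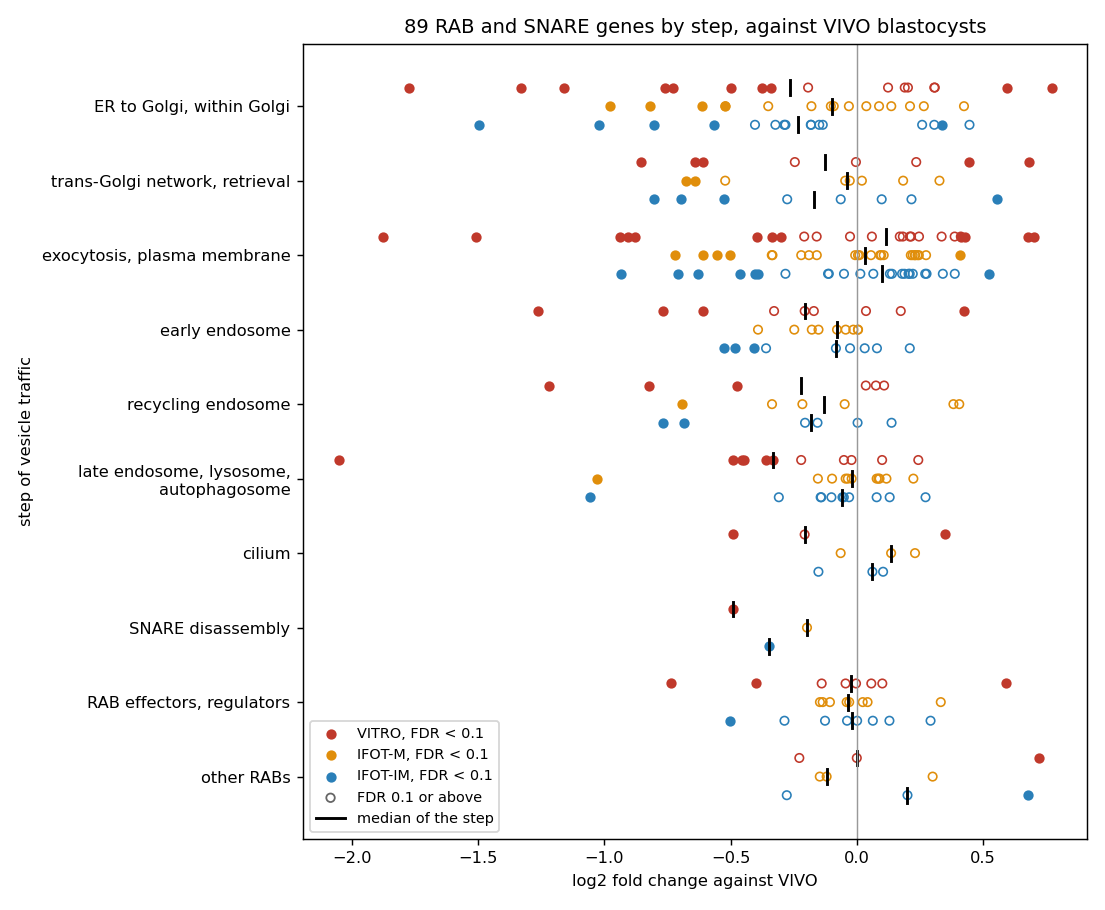
Log2 fold change of the 89 genes against VIVO (x axis), grouped by step of vesicle traffic (y axis), for VITRO, IFOT-M and IFOT-IM (3 arrays each). Filled circles passed an FDR of 0.1, open circles did not, and bars are the medians of each step, which in VITRO ran from -0.49 for NSF, the only gene of its step, to 0.11 for exocytosis.

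Early secretory traffic held 3 of the 8 DEGs. Of 16 genes acting between the endoplasmic reticulum and the Golgi or within the Golgi, 8 were lower and 2 higher in VITRO, 4 lower in the IFOT-M group and 4 lower and 1 higher in IFOT-IM. Of all probe sets 22.7% were lower and 25.1% higher in VITRO. The shares were 6.87% lower in IFOT-M, and 12.6% lower and 7.95% higher in IFOT-IM. BET1, a SNARE of vesicles on the way to the Golgi, had log2 signals of 3.65, 3.55 and 2.95 in the VITRO arrays, 4.35, 4.22 and 3.97 in the IFOT-M arrays, 3.38, 3.61 and 3.97 in the IFOT-IM arrays and 4.99, 5.33 and 5.15 in the VIVO arrays. Every VITRO, IFOT-M and IFOT-IM array lay below every VIVO array. The difference from VIVO was -1.78 ± 0.20 (SE, FDR 6.8e-05) in VITRO, -0.98 (FDR 0.0139) in the IFOT-M group and -1.50 (FDR 0.000661) in IFOT-IM, and VITRO was also lower than IFOT-M in the direct test (-0.80, FDR 0.0221) while its arrays overlapped those of IFOT-IM. RAB2A, a RAB of the Golgi and the compartment before it, had 5.15, 5.15 and 5.28 in the VITRO arrays, 5.75, 5.55 and 5.81 in the IFOT-M arrays, 5.26, 5.61 and 5.64 in the IFOT-IM arrays and 6.47, 6.57 and 6.54 in the VIVO arrays. VIVO lay above all other arrays. The signal differed from VIVO by -1.33 ± 0.13 (SE, FDR 3.02e-05) in VITRO, -0.82 (FDR 0.00369) in the IFOT-M group and -1.02 (FDR 0.000486) in IFOT-IM. RAB1A, which starts transport out of the endoplasmic reticulum, had 5.59, 5.82 and 6.04 in the VITRO arrays, 6.31, 6.42 and 6.35 in the IFOT-M arrays, 5.94, 6.28 and 6.30 in the IFOT-IM arrays and 7.0, 6.95 and 6.97 in the VIVO arrays. Its difference from VIVO was -1.16 ± 0.14 (SE, FDR 9.1e-05) in VITRO, -0.61 (FDR 0.0219) in the IFOT-M group and -0.80 (FDR 0.00275) in IFOT-IM, again with no overlap with VIVO. The BET1 call between VITRO and IFOT-M ended on rescaling, at -0.59 (FDR 0.114) after quantile normalization and -0.45 (FDR 0.204) after cyclic loess.

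YKT6, a lipid-anchored SNARE of the Golgi, was lowest in the 3 VITRO arrays, with 3.02, 3.27 and 3.32 in the VITRO arrays, 4.0, 3.91 and 3.68 in the IFOT-M arrays, 3.46, 3.74 and 3.84 in the IFOT-IM arrays and 3.87, 4.19 and 3.84 in the VIVO arrays. It was lower in VITRO than in VIVO (-0.76 ± 0.15 SE, FDR 0.00228) and than in IFOT-M (-0.66, FDR 0.0149), and neither IFOT group was called against VIVO. The call against IFOT-M ended after cyclic loess (-0.39, FDR 0.111). Of the genes called higher, RAB6B, the neuronal form of the Golgi RAB6, averaged 1.41 ± 0.07 in VITRO and 0.81 ± 0.18 in VIVO (SD, n = 3 each) and rose by 0.59 ± 0.13 (SE, FDR 0.00456). RAB19, a Golgi-associated RAB, rose by 0.77 ± 0.19 (SE, FDR 0.00784), with 1.43, 2.24 and 1.86 in VITRO and 1.01, 1.21 and 0.99 in VIVO. RAB39A was called higher against VIVO by its brighter probe set in IFOT-IM alone (0.34, FDR 0.0901), and not without IFOT-IM replicate 1 or 2 or any VIVO array (FDR up to 0.24) or after quantile normalization (FDR 0.122). In all 3 genes the arrays of the group called higher lay above every VIVO array. The dimmer RAB39A probe set was instead higher in VITRO (0.52, FDR 0.0438) and not called in IFOT-IM (0.24, FDR 0.42), so the group in which RAB39A was higher is not settled.

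The trans-Golgi network and the return route from endosomes had 3 lower and 2 higher genes of 8 in VITRO, 2 lower in the IFOT-M group and 3 lower and 1 higher in IFOT-IM. Over all probe sets 22.7% were lower and 25.1% higher in VITRO. RAB14, which works between the trans-Golgi network and early endosomes, had 4.11, 3.87 and 3.81 in the VITRO arrays, 4.19, 4.04 and 4.20 in the IFOT-M arrays, 3.67, 4.02 and 4.25 in the IFOT-IM arrays and 4.80, 4.68 and 4.87 in the VIVO arrays. The 3 groups overlapped each other and all lay below VIVO, with differences of -0.85 ± 0.15 (SE, FDR 0.00105) in VITRO, -0.64 (FDR 0.026) in the IFOT-M group and -0.80 (FDR 0.00431) in IFOT-IM. VAMP4, the VAMP of the trans-Golgi network, was lower in VITRO (-0.64 ± 0.19 SE, FDR 0.0177) and in IFOT-IM (-0.53, FDR 0.0791), and differed from VIVO by -0.52 (FDR 0.126) in IFOT-M. STX10, a syntaxin of the same membrane, went the other way. It had 1.89, 1.83 and 2.19 in the VITRO arrays, 1.51, 1.62 and 1.71 in the IFOT-M arrays, 1.95, 1.55 and 2.01 in the IFOT-IM arrays and 1.34, 1.21 and 1.31 in the VIVO arrays, with a difference of 0.68 ± 0.15 (SE, FDR 0.00356) in VITRO, 0.55 (FDR 0.0259) in IFOT-IM and 0.33 (FDR 0.235) in IFOT-M. RAB9B averaged 0.99 ± 0.18 in VITRO and 0.54 ± 0.09 in VIVO, near the lowest signals on the array, and was higher by 0.44 ± 0.14 (SE, FDR 0.0275), a call lost after quantile normalization (0.25, FDR 0.23) and cyclic loess (FDR 0.265). For RAB14 the IFOT-M call ended after quantile normalization (-0.42, FDR 0.139) and the VITRO call after cyclic loess (-0.29, FDR 0.172). The IFOT-IM calls ended for VAMP4, at -0.48 (FDR 0.179) after quantile normalization and -0.53 (FDR 0.101) after cyclic loess, and for STX10 after quantile normalization (0.41, FDR 0.117).

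Exocytosis and the plasma membrane formed the largest group, with 24 genes, of which 8 were lower (5 without VITRO replicate 1 or VIVO replicate 1) and 4 higher in VITRO, 4 lower and 1 higher in the IFOT-M group and 6 lower and 1 higher in IFOT-IM. The shares of all probe sets in VITRO were 22.7% lower and 25.1% higher. RAB27A, which docks secretory granules, lysosome-related organelles and exosome-bearing bodies at the cell surface, had the largest difference of this group. Its signals were 2.80, 2.62 and 2.80 in the VITRO arrays, 3.51, 4.11 and 4.07 in the IFOT-M arrays, 3.52, 3.67 and 3.85 in the IFOT-IM arrays and 4.66, 4.46 and 4.73 in the VIVO arrays, in separate ranges for VITRO, the IFOT groups and VIVO. The difference from VIVO was -1.88 ± 0.17 (SE, FDR 1.64e-05) in VITRO, -0.72 (FDR 0.0229) in the IFOT-M group and -0.93 (FDR 0.00302) in IFOT-IM. RAB27A was also a DEG between VITRO and IFOT-M (-1.15, FDR 0.00161) and lower in VITRO than in IFOT-IM (-0.94, FDR 0.00904). SNAP23, the widely expressed SNARE of the plasma membrane, had 3.48, 3.20 and 3.28 in the VITRO arrays, 4.18, 4.28 and 4.19 in the IFOT-M arrays, 3.69, 4.30 and 4.36 in the IFOT-IM arrays and 4.86, 4.75 and 4.88 in the VIVO arrays. The ranges ran in the same order, with -1.51 ± 0.16 (SE, FDR 5.39e-05) in VITRO, -0.61 (FDR 0.0464) in the IFOT-M group and -0.71 (FDR 0.0137) in IFOT-IM, and VITRO differed from IFOT-M by -0.90 (FDR 0.00493) and from IFOT-IM by -0.80 (FDR 0.018). The IFOT-M call for SNAP23 was lost on leaving out any 1 of the IFOT-M or VIVO arrays (FDR 0.102 to 0.145). VAMP3, a SNARE of recycling vesicles that fuse with the cell surface, was lower in VITRO (-0.94 ± 0.16 SE, FDR 0.000764) and IFOT-IM (-0.46, FDR 0.0718). RAB10, which directs vesicles to the basolateral membrane of epithelia, differed in VITRO by -0.88 ± 0.12 (SE, FDR 0.000234), with 5.59, 5.66 and 5.73 in VITRO and 6.44, 6.56 and 6.60 in VIVO. After rescaling, RAB27A was no longer called in IFOT-M by quantile normalization (-0.51, FDR 0.119), and SNAP23 was called in neither IFOT group. SNAP23 then stood at -0.40 (FDR 0.199) after quantile normalization and -0.41 (FDR 0.141) after cyclic loess in IFOT-M, and at -0.42 (FDR 0.132) after quantile normalization and -0.41 (FDR 0.109) after cyclic loess in IFOT-IM. VAMP3 in IFOT-IM was -0.13 (FDR 0.662) after quantile normalization and -0.08 (FDR 0.751) after cyclic loess. In VITRO the calls for VAMP3 (-0.26, FDR 0.153) and RAB10 (-0.19, FDR 0.171) ended after cyclic loess.

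The 4 exocytosis genes called higher in VITRO were RAB26, RAB3B, RAB3D and RAB37, all RABs known from secretory granules, as RAB27A is, which was lower, while RAB3A and RAB27B were not called. RAB26 had 3.41, 2.68 and 3.03 in VITRO and 2.46, 2.27 and 2.27 in VIVO, RAB3B 1.43, 2.27 and 1.74 in VITRO and 1.22, 1.07 and 1.12 in VIVO and RAB3D 3.88, 4.17 and 4.12 in VITRO and 3.81, 3.42 and 3.67 in VIVO. They rose by 0.70 ± 0.17 (SE, FDR 0.00688), 0.68 ± 0.22 (SE, FDR 0.0275) and 0.43 ± 0.15 (SE, FDR 0.045) in VITRO. RAB37 rose by 0.41 ± 0.17 (SE, FDR 0.0722) with overlapping arrays. Of these calls, RAB3B's was lost without VITRO replicate 2 (0.45, FDR 0.104), RAB3D's without VITRO replicate 2 or 3 or VIVO replicate 2 (FDR up to 0.166) and RAB37's without VITRO replicate 1 or 2 or VIVO replicate 2 or 3 (FDR up to 0.244). The calls for RAB3B and RAB37 were lost after quantile normalization, while RAB3D then differed by 0.82 (FDR 0.0035). VAMP2, the VAMP of regulated exocytosis, was the only member higher in IFOT-M, and had 1.51, 1.41 and 1.40 in the VITRO arrays, 1.60, 1.68 and 1.53 in the IFOT-M arrays, 1.56, 1.84 and 1.74 in the IFOT-IM arrays and 1.17, 1.15 and 1.26 in the VIVO arrays. All arrays of the 3 groups lay above those of VIVO, with differences of 0.25 (FDR 0.104) in VITRO, which just missed the threshold, 0.41 (FDR 0.0525) in the IFOT-M group and 0.52 (FDR 0.00977) in IFOT-IM. The IFOT-M call held only without IFOT-M replicate 3, and leaving out any other IFOT-M or VIVO array gave FDRs of up to 0.171. After quantile normalization the difference in VITRO was 0.01 (FDR 0.951), and in IFOT-M VAMP2 was 0.31 (FDR 0.182) after quantile normalization and 0.31 (FDR 0.15) after cyclic loess.

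**Figure D2:**
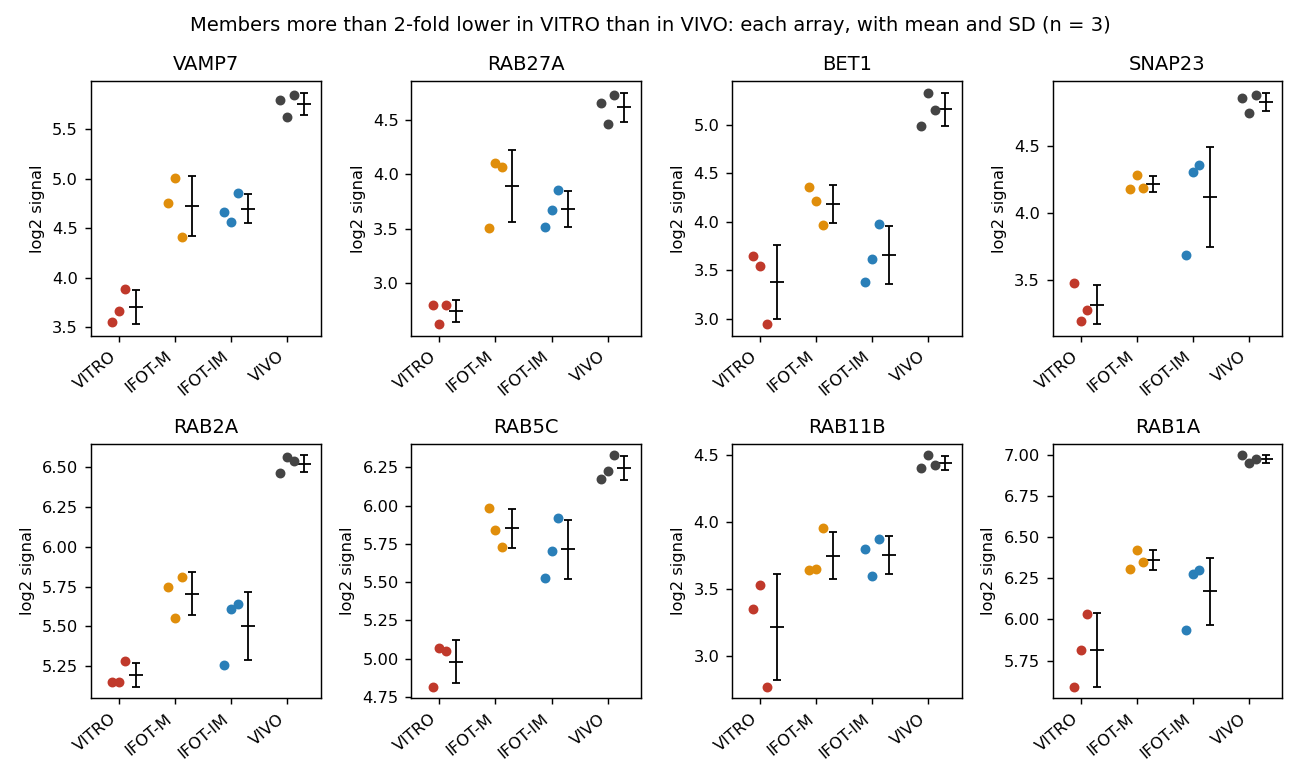
Log2 signal (y axis) of the 8 members more than 2-fold lower in VITRO than in VIVO, for each of the 3 arrays per group (x axis), with mean and SD at the right of the points. In all 8 panels the IFOT means lie between the VITRO and VIVO means, and the 8 were chosen by the difference between VITRO and VIVO.

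In endocytic traffic the RAB5 family differed among its own members. RAB5 proteins mark the early endosome, where 3 of 9 genes were lower and 1 higher in VITRO (22.7% and 25.1% of all probe sets). In the IFOT-M group 0 were called and in IFOT-IM 3 were lower. RAB5C had 4.82, 5.07 and 5.05 in the VITRO arrays, 5.99, 5.84 and 5.73 in the IFOT-M arrays, 5.53, 5.70 and 5.92 in the IFOT-IM arrays and 6.17, 6.23 and 6.33 in the VIVO arrays, so that VITRO lay below both IFOT groups and these below VIVO. It differed from VIVO by -1.26 ± 0.13 (SE, FDR 4.42e-05) in VITRO, -0.39 (FDR 0.111) in the IFOT-M group and -0.53 (FDR 0.0212) in IFOT-IM, and VITRO differed by -0.87 (FDR 0.00219) from IFOT-M and -0.74 (FDR 0.0108) from IFOT-IM. RAB5A had 4.59, 5.01 and 4.99 in the VITRO arrays, 4.91, 5.17 and 5.10 in the IFOT-M arrays, 4.41, 4.77 and 4.81 in the IFOT-IM arrays and 4.95, 5.12 and 5.15 in the VIVO arrays, with overlapping VITRO and VIVO arrays, and differed by -0.21 (FDR 0.292) in VITRO, -0.01 (FDR 0.974) in the IFOT-M group and -0.41 (FDR 0.0992) in IFOT-IM. The RAB5A value turned to 0.35 (FDR 0.0703) in VITRO after quantile normalization. RAB5B was lower in VITRO (-0.61 ± 0.12 SE, FDR 0.00244) and overlapped VIVO in both IFOT groups, but the VITRO difference was -0.07 (FDR 0.704) after quantile normalization and 0.05 (FDR 0.806) after cyclic loess. The IFOT-IM calls also ended, with RAB5C at -0.20 (FDR 0.33) after quantile normalization and -0.13 (FDR 0.507) after cyclic loess and RAB5A at -0.09 (FDR 0.76) after quantile normalization and -0.04 (FDR 0.905) after cyclic loess.

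RAB21, which takes part in the uptake of integrins, was lower in VITRO by its brighter probe set (-0.77 ± 0.16 SE, FDR 0.00277) and higher by its other one (0.62, FDR 0.0701), so its direction is not settled. The other probe set was also higher in IFOT-M (0.89, FDR 0.0557) and IFOT-IM (0.76, FDR 0.0656), where the brighter one was not called. RAB20, linked to phagosomes and endosomes, was called higher (0.42 ± 0.19 SE, FDR 0.0936), but not without VITRO replicate 3 (0.19, FDR 0.355) or without any 1 of the VIVO arrays, nor after quantile normalization (0.40, FDR 0.185).

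Among 6 genes of the recycling endosome 3 were lower in VITRO, 1 in the IFOT-M group and 2 in IFOT-IM, and 0 were higher. Of all probe sets 22.7% were lower and 25.1% higher in VITRO, and of those above the median signal 41.4% and 18.3%. RAB11 proteins return internalized receptors and membrane to the surface. RAB11B had 3.35, 3.53 and 2.77 in the VITRO arrays, 3.64, 3.65 and 3.95 in the IFOT-M arrays, 3.80, 3.60 and 3.87 in the IFOT-IM arrays and 4.40, 4.50 and 4.42 in the VIVO arrays, below VIVO in every array, with -1.22 ± 0.18 (SE, FDR 0.000306) in VITRO, -0.69 (FDR 0.0381) in the IFOT-M group and -0.68 (FDR 0.0239) in IFOT-IM. The IFOT-M call for RAB11B was lost without IFOT-M replicate 1 or 2 or VIVO replicate 2 or 3 (FDR up to 0.128). RAB11A had 7.83, 7.98 and 7.94 in the VITRO arrays, 8.55, 8.35 and 8.32 in the IFOT-M arrays, 7.52, 8.13 and 8.27 in the IFOT-IM arrays and 8.71, 8.62 and 8.90 in the VIVO arrays, and was lower in VITRO (-0.83 ± 0.17 SE, FDR 0.00328) and IFOT-IM (-0.77, FDR 0.0123), whereas IFOT-M differed by -0.34 (FDR 0.313). After rescaling RAB11B was called in neither IFOT group, at -0.49 (FDR 0.248) after quantile normalization and -0.52 (FDR 0.138) after cyclic loess in IFOT-M, and at -0.40 (FDR 0.292) after quantile normalization and -0.44 (FDR 0.182) after cyclic loess in IFOT-IM. The VITRO call for RAB11A ended after cyclic loess (-0.26, FDR 0.165).

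RAB35, which drives the fast recycling route, had 2.65, 3.10 and 3.05 in the VITRO arrays, 3.91, 3.79 and 3.73 in the IFOT-M arrays, 3.69, 3.30 and 3.64 in the IFOT-IM arrays and 3.42, 3.37 and 3.42 in the VIVO arrays. The 3 lowest values were those of VITRO and the 3 highest those of IFOT-M, although IFOT-M (0.41, FDR 0.134) and IFOT-IM (0.14, FDR 0.571) were not called against VIVO. The direct tests gave -0.88 ± 0.15 (SE, FDR 0.00311) for VITRO against IFOT-M and -0.61 ± 0.15 (SE, FDR 0.0344) against IFOT-IM, whereas VITRO differed from VIVO by -0.47 ± 0.15 (SE, FDR 0.0244) as deposited and by -0.29 (FDR 0.217) after quantile normalization. The call against IFOT-IM ended after cyclic loess (-0.45, FDR 0.124). With RNA integrity as a covariate the VITRO calls against VIVO and IFOT-IM ended, and that against IFOT-M held.

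Late endosomes, lysosomes and autophagosomes had the largest change of the 89 genes. Of 11 genes 6 were lower (3 without VITRO replicate 2) and 0 higher in VITRO, whereas VAMP7 alone was called in the IFOT-M group and in IFOT-IM. The shares of all probe sets in VITRO were 22.7% lower and 25.1% higher, and above the median signal 41.4% and 18.3%. VAMP7, the long-domain VAMP that fuses late endosomes with lysosomes and lysosomes with the cell surface, had 3.55, 3.66 and 3.89 in the VITRO arrays, 4.75, 5.01 and 4.41 in the IFOT-M arrays, 4.67, 4.57 and 4.86 in the IFOT-IM arrays and 5.80, 5.62 and 5.84 in the VIVO arrays. VITRO, the IFOT groups and VIVO occupied 3 separate ranges, and the IFOT groups overlapped each other. VITRO was 4.15-fold lower than VIVO (-2.05 ± 0.16 SE, FDR 9.12e-06), IFOT-M 2.04-fold (-1.03, FDR 0.00322) and IFOT-IM 2.08-fold (-1.06, FDR 0.00124). Directly, VITRO differed by -1.02 (FDR 0.00235) from IFOT-M and -1.0 (FDR 0.00593) from IFOT-IM. The second, dimmer VAMP7 probe set was also lower in VITRO (-0.54, FDR 0.0399) but not called in IFOT-M (0.01, FDR 0.986) or IFOT-IM (-0.16, FDR 0.612). By this probe set the direct call against IFOT-IM ended (-0.38, FDR 0.267), while that against IFOT-M held.

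RAB7A, the RAB that drives late endosomes to lysosomes, had 4.93, 4.81 and 5.16 in the VITRO arrays, 5.53, 5.52 and 5.67 in the IFOT-M arrays, 5.36, 5.18 and 5.52 in the IFOT-IM arrays and 5.57, 5.39 and 5.42 in the VIVO arrays. It was lower in VITRO than in VIVO (-0.49 ± 0.13 SE, FDR 0.0124) and than in IFOT-M (-0.61, FDR 0.0112), but against VIVO the sign turned to 0.09 (FDR 0.706) after quantile normalization and 0.20 (FDR 0.372) after cyclic loess. The difference from IFOT-M was then -0.24 (FDR 0.339) after quantile normalization and -0.16 (FDR 0.562) after cyclic loess, with the call lost. RAB7B, another RAB of these organelles, differed by -0.46 ± 0.15 (SE, FDR 0.0287) in VITRO and lost its call without VIVO replicate 3 (-0.36, FDR 0.113) and after cyclic loess (-0.32, FDR 0.13).

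The remaining genes showed smaller differences. NSF, the ATPase that recycles SNAREs after fusion, had 1.99, 2.29 and 2.17 in the VITRO arrays, 2.53, 2.34 and 2.46 in the IFOT-M arrays, 2.30, 2.35 and 2.22 in the IFOT-IM arrays and 2.74, 2.57 and 2.61 in the VIVO arrays. It was lower in VITRO (-0.49 ± 0.12 SE, FDR 0.00715) and IFOT-IM (-0.35, FDR 0.0714), and every array of these groups and of IFOT-M lay below VIVO. Of 3 genes tied to the primary cilium, RAB28 was lower (-0.49 ± 0.14 SE, FDR 0.0139) and RAB34 higher (0.35 ± 0.15 SE, FDR 0.0842) in VITRO. The call for RAB34 was lost without VITRO replicate 1 or 2 or VIVO replicate 1 or 3 (FDR up to 0.243), and that for NSF in IFOT-IM without IFOT-IM replicate 1 or 3 or any VIVO array (FDR up to 0.192). RAB42, a little-studied RAB, was higher in VITRO (0.72 ± 0.22 SE, FDR 0.0246) and IFOT-IM (0.68, FDR 0.0645). Among the 8 effectors and regulators, RAB11FIP5, which binds RAB11, was higher in VITRO (0.59 ± 0.19 SE, FDR 0.028). RAB5IF, a membrane protein named for its binding to RAB5, was lower (-0.74 ± 0.18 SE, FDR 0.00756), as was RAB3GAP2, a subunit of the GTPase-activating protein of RAB3 (-0.40 ± 0.15 SE, FDR 0.0531). After quantile normalization RAB11FIP5 (0.47, FDR 0.109), RAB5IF (-0.16, FDR 0.447) and, in IFOT-IM, RAB42 (0.61, FDR 0.184) lost their calls, and RAB3GAP2 lost its call without VITRO replicate 1 or 3 or VIVO replicate 1 (FDR up to 0.184).

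Of the 35 genes lower in VITRO than in VIVO, 27 had both IFOT means between the VITRO and VIVO means. The 35 were picked for VITRO below VIVO in these same arrays, and the spread of the arrays ran in the same order. The share over all probe sets was not computed, so this count is not read as particular to these genes. By calls, 12 genes were lower in all 3 groups (VAMP7, RAB27A, BET1, SNAP23, RAB2A, RAB11B and RAB1A, with RAB14, RAB8A, RAB9A, RAB6A and RAB15), 7 in VITRO and IFOT-IM, and 16 in VITRO without a call in either IFOT group. After quantile normalization 5 of the 12 were still called in IFOT-M (VAMP7, BET1, RAB2A, RAB1A and RAB9A), and the other IFOT-M calls ended. So did the IFOT-IM calls for SNAP23, RAB11B, RAB8A and RAB15 and the VITRO call for RAB6A. In VITRO RAB15 turned to 0.21 (FDR 0.198), and to 0.32 (FDR 0.066) after cyclic loess. A missed call does not show a difference between groups, so VITRO was set against each IFOT group directly. Against IFOT-M, which shared the in vitro matured oocytes, 22 genes were lower and 4 higher in VITRO, where 12.9% of all probe sets were lower and 8.38% higher. Against IFOT-IM 10 were lower and 0 higher, where 5.86% and 2.81% of all probe sets were called. Without IFOT-M replicate 1 these counts against IFOT-M were 14 and 0, and the count of lower genes against IFOT-IM was 16 without IFOT-IM replicate 1 and 4 without IFOT-IM replicate 3.

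The 10 lower against IFOT-IM were also lower against IFOT-M, and served early secretory traffic (RAB1B and YKT6), exocytosis (RAB27A, SNAP23, RAB10 and RAB12), early endosomes (RAB5B and RAB5C), recycling (RAB35) and lysosomal fusion (VAMP7). The call against IFOT-IM was kept for YKT6 in 5 of 19 alternatives. After quantile normalization the calls against IFOT-IM ended for RAB5B (FDR 0.159), RAB10 (FDR 0.159) and YKT6 (FDR 0.159), and that of RAB5B against IFOT-M (FDR 0.334) ended too. The 4 genes higher in VITRO than in IFOT-M were RAB3B (0.58, FDR 0.0927), RAB6B (0.51, FDR 0.0261), RAB26 (0.49, FDR 0.0741) and STX1A (0.43, FDR 0.0424), of which RAB3B (FDR 0.238) and RAB6B (FDR 0.107) were not called after quantile normalization. After quantile normalization the direct counts were 14 lower and 5 higher against IFOT-M (7.44% and 5.86% of all probe sets) and 7 lower and 1 higher against IFOT-IM (4.26% and 3.19%). After cyclic loess they were 8 and 5 against IFOT-M (5.39% and 5.6%) and 5 and 1 against IFOT-IM (2.65% and 2.83%).

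IFOT-M and IFOT-IM, which differ in whether the oocyte matured in the laboratory or in the follicle, were also compared directly. limma called 0 of the 89 genes (smallest FDR 0.654), 3 had an unadjusted p below 0.05, and of all probe sets tested 0 were called, with 1855 at an unadjusted p below 0.05.

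**Figure D3:**
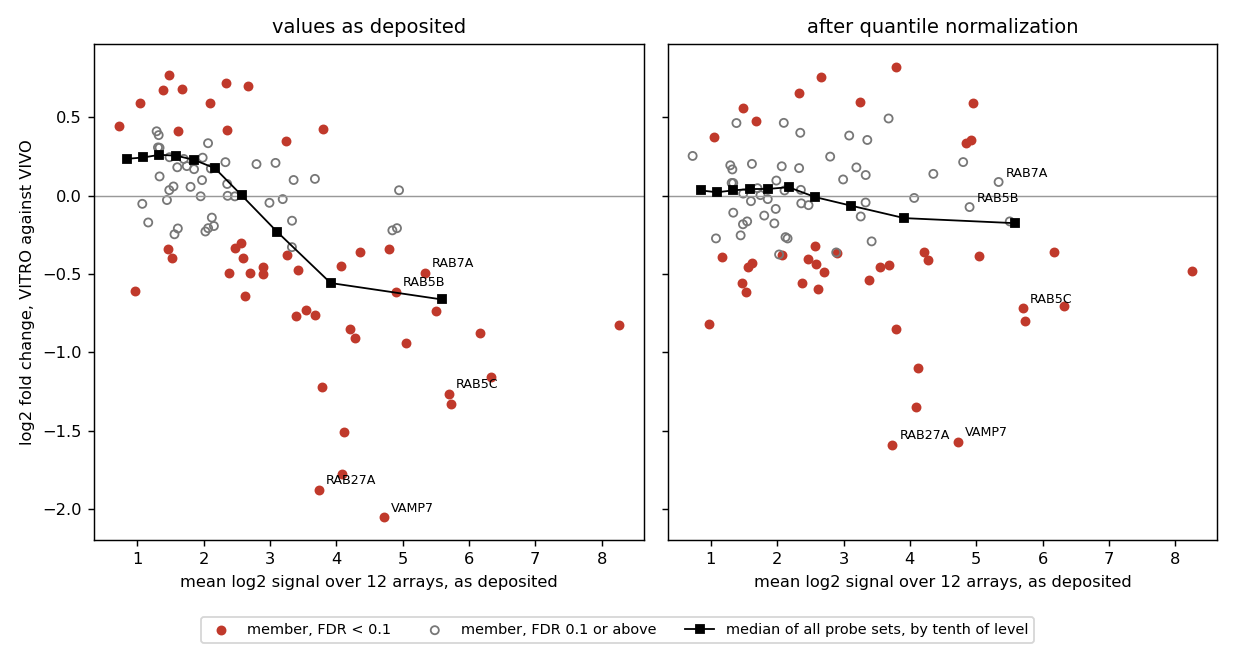
Log2 fold change of VITRO against VIVO (y axis) by mean log2 signal (x axis) for the 89 genes, with the values as deposited on the left and after quantile normalization on the right. Black squares are medians of all probe sets in 10 ranges of signal. The squares fall to -0.66 on the left and to -0.18 on the right, and VAMP7 and RAB27A stay far below them in both panels.

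Close paralogs are read on the same array, so the difference between a pair within each array cancels a shift that the whole array shares. Over the 18 pairs with the same RAB number this difference was compared among the 4 groups by an exact permutation test, with p adjusted over the 18 pairs and 6.49e-05 as the smallest p it can give. The difference varied among groups in 11 pairs (adjusted p below 0.1), and in 9 of these it also did after quantile normalization. The share for other pairs of probe sets was not computed, so this count has no baseline. Of single probe sets 36.3% were called by the moderated F test. The RAB5 family, whose 3 members have similar signals, gave the clearest case. RAB5A minus RAB5C averaged -0.11 ± 0.09 in VITRO, -0.79 ± 0.25 for IFOT-M, -1.05 ± 0.10 for IFOT-IM and -1.17 ± 0.06 in VIVO (SD, n = 3 each; exact permutation p = 0.000779, adjusted p = 0.00497). The VITRO arrays lay apart from those of every other group, and VITRO minus VIVO was 1.06 as deposited and 1.07 after quantile normalization. RAB5B minus RAB5C was -0.50 ± 0.08 in VITRO and -1.15 ± 0.10 in VIVO (exact permutation adjusted p = 0.0156).

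RAB27A minus RAB27B was 1.04 ± 0.16 in VITRO, 2.36 ± 0.41 for IFOT-M, 2.02 ± 0.20 for IFOT-IM and 3.09 ± 0.16 in VIVO (exact permutation adjusted p = 0.00468), and VITRO minus VIVO was -2.06 as deposited and -1.55 after quantile normalization. In RAB2A minus RAB2B and RAB6A minus RAB6B, whose members differ widely in signal, VITRO minus VIVO was -1.52 and -1.09 as deposited and -0.80 and -0.73 after quantile normalization. RAB27B, RAB2B and RAB6B lay below the median signal, and it is not known whether they stood above background.

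**Figure D4:**
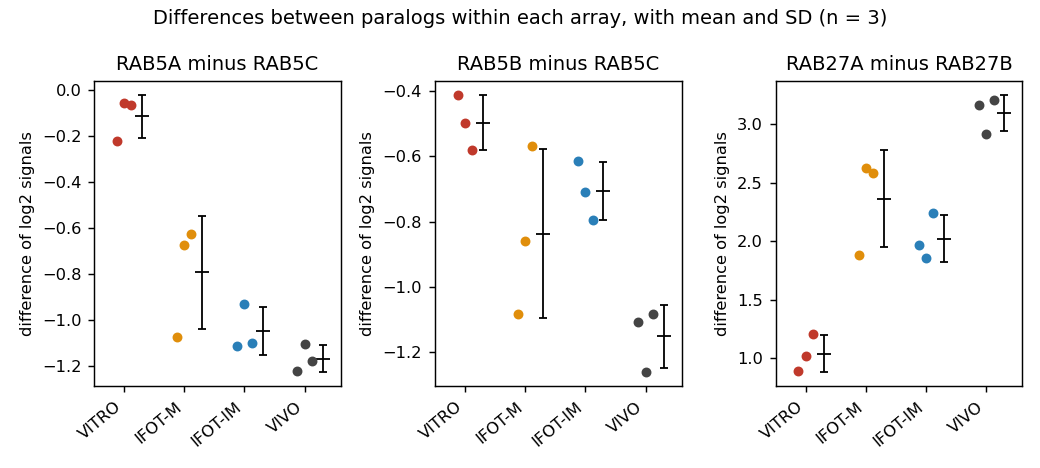
Difference of log2 signals between 2 paralogs within each array (y axis) for the 3 arrays per group (x axis), with mean and SD at the right of the points. The mean of RAB5A minus RAB5C is -0.11 in VITRO and -1.17 in VIVO, and that of RAB27A minus RAB27B is 1.04 in VITRO and 3.09 in VIVO.

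Genes that act around the RABs and SNAREs were also called lower more often than higher in VITRO, where 22.7% of all probe sets tested were lower and 25.1% higher. Among probe sets above the median signal the shares were 41.4% and 18.3%, and the lists were not matched for signal. Over all probe sets 6.87% were lower in IFOT-M and 12.6% in IFOT-IM. Of 46 tethering proteins tested, which catch vesicles before fusion, 20 were lower and 0 higher in VITRO (12 lower without VIVO replicate 2), 5 lower in IFOT-M and 9 lower in IFOT-IM. Their DEGs were TRAPPC1 (-1.19, FDR 0.000271) and TRAPPC2 (-1.0, FDR 0.00777) of the TRAPP complexes at the early secretory pathway, and EXOC8 (-1.01, FDR 0.000337) of the exocyst at the plasma membrane. TRAPPC2 was also lower in IFOT-M (-1.29, FDR 0.00909) and IFOT-IM (-1.67, FDR 0.00109).

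Of 36 genes that prenylate, extract or activate RABs, 17 were lower and 1 higher in VITRO, 4 lower in the IFOT-M group and 15 lower in IFOT-IM. The DEGs with the largest changes were USP6NL, a GTPase-activating protein for RAB5 (-1.24, FDR 0.000191), CCZ1, part of the exchange factor of RAB7 (-1.17, FDR 0.00268), and RIN3, an exchange factor of the RAB5 family (-1.13, FDR 0.000145). RABGGTB, the catalytic subunit of the enzyme that attaches lipid anchors to RABs, was lower in VITRO (-1.10, FDR 5.39e-05), IFOT-M (-0.90, FDR 0.00131) and IFOT-IM (-1.03, FDR 0.000299). Of 28 other SNAREs and SM proteins 11 were lower and 2 higher in VITRO (7 lower without VITRO replicate 1, 5 higher without VITRO replicate 3), 3 lower in IFOT-M, and 6 lower and 1 higher in IFOT-IM, and the DEG among them was the Golgi SNARE GOSR1 (-1.18, FDR 0.000246).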

How the data were processed

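RNA of 12 blastocyst pools, which the design text describes as independent biological replicates, was hybridized to 1-colour Affymetrix Bovine Gene ST arrays. The authors processed the images with Expression Console (RMA background correction, quantile normalization and summary at transcript level) and deposited log2 values per probe set. The log2 scale was inferred from their range (-0.39 to 12.6), and how the quantile step was run is unknown, since the spread of the arrays differed between groups. Probe sets were named from the platform annotation (18457 of 26773 with 1 symbol, 688 with several, 7628 with none). A symbol listed 2 times counted as several. Of the 89 genes 87 were matched to RefSeq by gene ID. The methods of the study say how many probes were kept and not by which measure, and here the weakest 2358 by mean signal were left out of the fits.

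Groups were compared with limma 3.58.1 in R 4.3.3 (lmFit and eBayes over all 12 arrays, two-sided, Benjamini-Hochberg over all probe sets tested). The number of arrays limits the precision. On simulated data with the 12-array design, the same fit of VITRO against VIVO found 82 of 100 simulated 2-fold changes and 94 of 100 simulated 3-fold changes, with 25 calls among 24215 probe sets simulated without a change. The simulation changed few probe sets, had independent noise and no difference in spread between groups. In the data many probe sets were called and the spread differed, so these rates do not carry over to them. Alternatives were quantile and cyclic loess normalization, a stricter filter, 2-group fits, a variance trend, array weights (statmod 1.5.0 was loaded), RNA integrity as a covariate, a replicate block, an FDR of 0.05, other probe sets and leaving out each array. The other probe set and the normalization of paralog differences were chosen after seeing the data.

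The genes, steps and lists were chosen with earlier results of these data known. Values were given for members that were DEGs, for up to 3 called members per step with the largest difference in VITRO, for all called higher against VIVO, and for RAB2A and NSF. Named after their values were seen were RAB1B, RAB3A, RAB5A, RAB6A, RAB8A, RAB8B, RAB9A, RAB10, RAB12, RAB15, RAB23, RAB27B, STX1A, STX8, VAMP8, YKT6, RABGGTB and the paralog pairs.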

Additional observations from a re-analysis of the deposited data

Results flagged for a closer look

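The direct tests of VITRO against the IFOT groups called 26 members against IFOT-M and 10 against IFOT-IM. For the genes given here the differences of the pair of groups from VIVO also had opposite signs. RAB35, of the fast recycling route, was lower in VITRO than in IFOT-M (-0.88, FDR 0.00311), where VITRO differed from VIVO by -0.47 and IFOT-M by 0.41, and lower in VITRO than in IFOT-IM (-0.61, FDR 0.0344), where IFOT-IM differed from VIVO by 0.14. RAB12, which acts in recycling and exocytosis, differed by -0.49 (FDR 0.0389) between VITRO and IFOT-M and by -0.60 (FDR 0.0298) between VITRO and IFOT-IM, with differences from VIVO of -0.40 for VITRO, 0.09 for IFOT-M and 0.21 for IFOT-IM. For RAB7A the difference between VITRO and IFOT-M was -0.61 (FDR 0.0112), with -0.49 in VITRO and 0.12 in IFOT-M against VIVO. After quantile normalization RAB7A differed from VIVO in the same direction in both groups (0.09 in VITRO, 0.32 in IFOT-M) and the direct call ended (-0.24, FDR 0.339). RAB12 in IFOT-M then differed from VIVO by -0.0015, so its signs were no longer opposite, while the direct calls for RAB12 held after this normalization. The RAB35 call against IFOT-IM ended after cyclic loess (-0.45, FDR 0.124). With RNA integrity as a covariate, and in 2-group fits, the direct calls ended for RAB12 in both comparisons and for RAB35 against IFOT-IM. Those for RAB35 and RAB7A against IFOT-M held in both settings.

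The other genes were not called against VIVO in either group. RAB23, a RAB of ciliary signalling, was lower in VITRO than in IFOT-M (-0.44, FDR 0.0464), with -0.21 in VITRO and 0.23 in IFOT-M against VIVO. RAB8B, which carries vesicles to the plasma membrane, differed by -0.45 (FDR 0.073), with -0.21 and 0.25. STX1A, the syntaxin of regulated exocytosis, ran the other way, at 0.43 (FDR 0.0424), with 0.21 in VITRO and -0.22 in IFOT-M against VIVO. RNA integrity as a covariate ended the direct calls for RAB23 and RAB8B, while that for STX1A held. Without IFOT-M replicate 1 the direct calls against IFOT-M were lost for RAB12 (-0.43, FDR 0.137), RAB23 (-0.43, FDR 0.122), RAB8B (-0.42, FDR 0.187) and STX1A (0.34, FDR 0.164), and without IFOT-IM replicate 3 those against IFOT-IM were lost for RAB12 (-0.56, FDR 0.112) and RAB35 (-0.56, FDR 0.124).

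The dimmer probe set of RAB21, which entered no count of the main fit, was higher in VITRO than in VIVO by 0.62 (FDR 0.0701), while the brighter one differed by -0.77 (FDR 0.00277). The dimmer one was also higher than VIVO in IFOT-M (0.89, FDR 0.0557) and IFOT-IM (0.76, FDR 0.0656).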

How the results depend on the processing

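After quantile normalization 5 members were lower in IFOT-M than in VIVO, 11 lower and 1 higher in IFOT-IM, 14 lower in VITRO than in IFOT-M, and 1 was higher in VITRO than in IFOT-IM. After cyclic loess 3 were higher in IFOT-M, 11 lower in IFOT-IM, 8 lower in VITRO than in IFOT-M, and 5 lower and 1 higher in VITRO than in IFOT-IM. The median of VITRO against VIVO was -0.084 after quantile normalization and -0.078 after cyclic loess. With the stricter filter on low signals 6 members were higher in VITRO and 2 in IFOT-IM, and the medians were -0.33 (VITRO), -0.10 (IFOT-M), -0.15 (IFOT-IM), -0.17 (VITRO against IFOT-M) and -0.14 (VITRO against IFOT-IM), since fewer weak genes were tested. With only the arrays of each pair of groups 3 were higher in IFOT-M, 2 higher in VITRO than in IFOT-M and 2 lower in VITRO than in IFOT-IM. Array weights gave 2 higher in IFOT-M. RNA integrity as a covariate gave 2 higher in IFOT-M and 5 lower in VITRO than in IFOT-IM. An FDR of 0.05 gave 0 higher in IFOT-M, 13 lower and 2 higher in IFOT-IM, and 2 higher in VITRO than in IFOT-M, and the other probe sets gave 2 higher in IFOT-M. Except for the filter, the cause of these changes was not tested.

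By step, in VITRO against VIVO, quantile normalization gave 2 higher genes for exocytosis, 1 higher for recycling, 1 lower and 0 higher effectors, 1 higher at the trans-Golgi network, and 3 lower and 1 higher at late endosomes. Cyclic loess gave 5 lower for exocytosis, 1 lower and 2 higher for recycling, 1 lower effector, 1 higher at the trans-Golgi network, and 2 lower and 1 higher at late endosomes. The stricter filter gave 0 higher between the endoplasmic reticulum and the Golgi, 2 higher for exocytosis and 0 higher at the trans-Golgi network. RNA integrity gave 5 lower and 2 higher for exocytosis, 1 lower and 0 higher effectors and 2 lower at late endosomes. The 2-group fit and an FDR of 0.05 each gave 1 lower effector and 0 higher at early endosomes, and the other probe sets gave 2 higher there. Of the further lists, the genes that prenylate, extract or activate RABs had 0 higher after quantile normalization, with the stricter filter and with RNA integrity, and the tethers had 1 higher after either normalization and 13 lower at an FDR of 0.05.

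With the replicate number as a block, the lower and higher members numbered 34 and 11 for VITRO, 12 and 1 for IFOT-M and 19 and 4 for IFOT-IM against VIVO, 22 and 4 in VITRO against IFOT-M and 9 and 0 in VITRO against IFOT-IM. This block gave 0 higher at early endosomes and 2 higher genes that prenylate, extract or activate RABs. The numbers did not pair the arrays, since 1 of 18 same-numbered pairs correlated above 0.1 (range -0.08 to 0.12).

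On leaving out 1 array, 28 to 32 members were lower and 9 to 12 higher in VITRO than in VIVO. Counts ranged from 6 to 9 lower in IFOT-M (6 without VIVO 3) and 0 to 1 higher (0 without IFOT-M 1 or 2 or any VIVO array), from 13 to 20 lower in IFOT-IM (13 without IFOT-IM 1 or VIVO 3) and 2 to 5 higher (2 without IFOT-IM 1 or VIVO 1 or 2), from 14 to 23 lower in VITRO against IFOT-M (14 without IFOT-M 1) and 0 to 6 higher (0 without IFOT-M 1, 2 without VITRO 3 or IFOT-M 3), and from 4 to 16 lower in VITRO against IFOT-IM (4 without IFOT-IM 3) and 0 to 1 higher (1 without VITRO 2 or 3 or IFOT-IM 2). By step, in VITRO against VIVO, exocytosis had 5 to 8 lower and 2 to 4 higher (2 without VITRO 2), effectors 1 to 2 lower (1 without VITRO 1 or 3 or VIVO 1), early endosomes 0 to 1 higher (0 without VITRO 3 or any VIVO array), and late endosomes 3 to 5 lower and 0 to 1 higher (3 and 1 without VITRO 2). Other SNAREs and SM proteins had 7 to 12 lower (7 without VITRO 1) and 2 to 5 higher (5 without VITRO 3), the genes that prenylate, extract or activate RABs 0 to 2 higher (2 without VITRO 1 or VIVO 1, 0 without VIVO 2), and tethers 12 to 17 lower (12 without VIVO 2).

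Of the named genes 9 of 49 calls in VITRO against VIVO were lost on leaving out some array, 9 of 17 in IFOT-M, 10 of 30 in IFOT-IM, 12 of 26 in VITRO against IFOT-M and 6 of 10 in VITRO against IFOT-IM. In VITRO against VIVO the arrays were VITRO 1 or 3 or VIVO 1 for RAB12 (FDR up to 0.142) and VITRO 1 or 2 or VIVO 1 for RAB15 (up to 0.177). In IFOT-M they were VIVO 3 for RAB14 (FDR 0.102), IFOT-M 3 or VIVO 1 or 2 for RIN3 (up to 0.203), IFOT-M 1 or 2 or VIVO 1 or 3 for TRAPPC1 (up to 0.206), IFOT-M 2 or 3 or VIVO 1 or 3 for RAB15 (up to 0.141), IFOT-M 1 or 3 or any VIVO array for RAB6A (up to 0.217) and IFOT-M 1 or 3 or VIVO 2 or 3 for RAB8A (up to 0.177). In IFOT-IM calls for RAB42, RAB10, RAB15, RAB5A, RAB5IF, USP6NL, VAMP3 and VAMP4 were lost without IFOT-IM 1 (FDR 0.176 to 0.314) and 2 to 4 other arrays. Against IFOT-M the 12 lost without IFOT-M 1 in VITRO were RAB11A, RAB11B, RAB12, RAB21, RAB23, RAB26, RAB28, RAB3B, RAB5IF, RAB6B, RAB8B and STX1A, and against IFOT-IM those lost without IFOT-IM 3 were RAB1B, RAB10, RAB12, RAB35, RAB5B and YKT6. VAMP7, RAB27A, BET1, RAB2A, RAB5C, SNAP23, RAB11B and RAB1A stayed called in VITRO against VIVO under every alternative that tested them.

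Among named genes, log2 fold changes that changed sign in VITRO were those of RAB15 (0.21 after quantile normalization, 0.32 after cyclic loess), RAB21 (0.62 by its other probe set), RAB5B (0.050 after cyclic loess), RAB7A (0.088 after quantile normalization, 0.20 after cyclic loess) and RAB5A (0.35 and 0.46). Of the other members counted as lower, STX8 (0.14 and 0.23) and, after cyclic loess, VAMP8 (0.09) turned too. In IFOT-M they were those of VAMP7 (0.0097 by its other probe set) and RAB5A (0.18 after quantile normalization, 0.22 after cyclic loess, -0.077 to 0.060 on leaving out 1 array), and in IFOT-IM that of RAB10 (0.0050 after cyclic loess). Paralog differences in VITRO minus VIVO that changed sign after quantile normalization were RAB3B minus RAB3D (-0.36), RAB7A minus RAB7B (0.45), RAB8A minus RAB8B (0.022) and RAB39A minus RAB39B (0.17).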
